A study of Rattus norvegicus with 24 samples.

Results

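The chemokines and cytokines followed here are 9 of the 13336 genes that the array's probes name: the chemokine ligands Ccl2, Ccl7, Cx3cl1 and Cxcl12, the receptor Cx3cr1, and the cytokines Il1b, Il18, Il6 and Tnf. They were taken by gene symbol in the platform annotation, and each was read by 1 probe. Total RNA of the dorsal root ganglion (DRG, the cluster of sensory neuron cell bodies beside the spinal cord) came from male Sprague-Dawley rats aged 3 months, with 1 Illumina RatRef-12 array per rat and 24 rats in all. The 6 groups of 4 rats were vincristine-morphine, vincristine-oxycodone, vincristine-saline, saline-morphine, saline-oxycodone and saline-saline treated rats. All had 10 days of vincristine, a chemotherapy drug that disturbs microtubules and causes a painful neuropathy, or of saline (control rats), and then 5 days of an opioid or saline. Morphine and oxycodone, opioids that share a ring skeleton, were given at the same dose per body weight. The ganglion is bulk tissue, so that fewer cells of a type and less RNA per cell cannot be told apart.

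Chemokines are small secreted proteins that attract leukocytes through receptors coupled to G proteins, and cytokines such as interleukin 1 beta and tumour necrosis factor carry inflammatory signals between immune cells, glia and neurons. In the pain literature, Ccl2 and Cx3cl1 are known as signals of injured sensory neurons to macrophages and microglia, which carry the receptors Ccr2 and Cx3cr1. Il1b and Il18 are made as precursors that Casp1 cleaves, while Cx3cl1 and Tnf are anchored in the membrane and are released by proteases such as Adam17.

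The 120 bases upstream of the start site are shown for 2 chemokine genes that the arrays detected, Cx3cl1 and Cxcl12, and for 4 of the fainter genes, so that the letters ahead of their starts can be set side by side. They are RefSeq sequences of build GRCr8, found for 8 of the 9 genes (all but Ccl2). Capitals mark the letters of a TATA box (TATAAA), at any distance from the start, or, in Il6, a match to the NF-kappaB consensus. Whether these letters work as such was not tested.
Cx3cl1, chr19:10242821-10242940 (-): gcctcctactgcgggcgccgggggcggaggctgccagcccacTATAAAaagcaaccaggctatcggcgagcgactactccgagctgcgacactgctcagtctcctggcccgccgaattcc
Cxcl12, chr4:152060661-152060780 (+): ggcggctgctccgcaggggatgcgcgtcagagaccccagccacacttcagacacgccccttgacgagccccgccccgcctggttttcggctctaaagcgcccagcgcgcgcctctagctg
Ccl7, chr10:67513975-67514094 (+): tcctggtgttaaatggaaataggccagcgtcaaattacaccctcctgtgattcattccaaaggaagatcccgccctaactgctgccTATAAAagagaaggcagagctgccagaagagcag
Il1b, chr3:137036582-137036701 (-): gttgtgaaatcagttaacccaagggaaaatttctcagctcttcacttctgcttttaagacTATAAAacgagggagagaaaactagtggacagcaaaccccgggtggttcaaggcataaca
Il6, chr4:5894576-5894695 (-): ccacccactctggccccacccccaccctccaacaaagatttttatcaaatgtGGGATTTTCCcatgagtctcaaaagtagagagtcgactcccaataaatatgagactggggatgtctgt
Tnf, chr20:3626565-3626684 (+): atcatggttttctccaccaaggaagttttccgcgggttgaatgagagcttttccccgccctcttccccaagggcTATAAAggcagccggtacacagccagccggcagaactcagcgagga
The 250 bases upstream were searched, for TATAAA on the gene's own strand only and for the other letters on both strands. TATAAA stood in 4 of 8 (Cx3cl1, Ccl7, Il1b and Tnf), against 8.06% of all 33469 promoters of the same length. In Ccl7 it lay 34 to 29 bases ahead of the start, in Tnf 46 to 41, in Il1b 60 to 55 and in Cx3cl1 78 to 73. The NF-kappaB consensus was found only in Il6 among the 8 (3.54% of all promoters), at bases 68 to 59, and so was TGACGTCA, the cyclic AMP response element (1.59%), at bases 162 to 155. TGACTCA, the AP-1 site, was in none of the 8 (4.05% of all promoters). The 250 bases upstream of Cxcl12 held none of these letters, and the 120 bases shown had 70% G and C. The start used for Cx3cl1 lies inside the gene's annotated span (chr19:10233326-10244856). Ccl2 (chr10:67503077-67504875) and Ccl7 (chr10:67514095-67515945) are neighbours on chromosome 10.

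Detection divided the 9 genes into 3 tiers. The detection p of a probe is the share of control steps at or above its signal, in steps of 1 of 825. A value within 0.0005, the cutoff given in the study's methods, therefore means that none was. Ccl2, Cx3cl1 and Cxcl12 met this on 24 of 24 arrays, in every group. Before normalization their signals were 117 to 272 for Ccl2, 158 to 481 for Cx3cl1 and 306 to 1073 for Cxcl12, while the median of all probes was 48.6 to 72.8 per array. Ccl7, Il1b and Il18 met it on 0 of 24 arrays but stood close to it: Il1b was within a detection p of 0.01 on 24 arrays, and Ccl7 and Il18 on 23 each. Their signals were 55.9 to 132 for Ccl7, 61.2 to 145 for Il1b and 64.2 to 127 for Il18. Cx3cr1, Il6 and Tnf were not within a detection p of 0.01 on any array. Cx3cr1 had detection p-values of 0.0158 to 0.216 and was within 0.05 on 9 of 24 arrays, Tnf had 0.0594 to 0.47 and Il6 0.0849 to 0.799. Missing the cutoff of 0.0005 shows only that the probe was not set apart from every control step, not that the gene is silent. The probe of Calca, a peptide gene of nociceptors, was detected on 0 of 24 arrays too, whereas the neuronal genes Tac1, Prph and Nefh were detected on all 24.

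**Figure D1:**
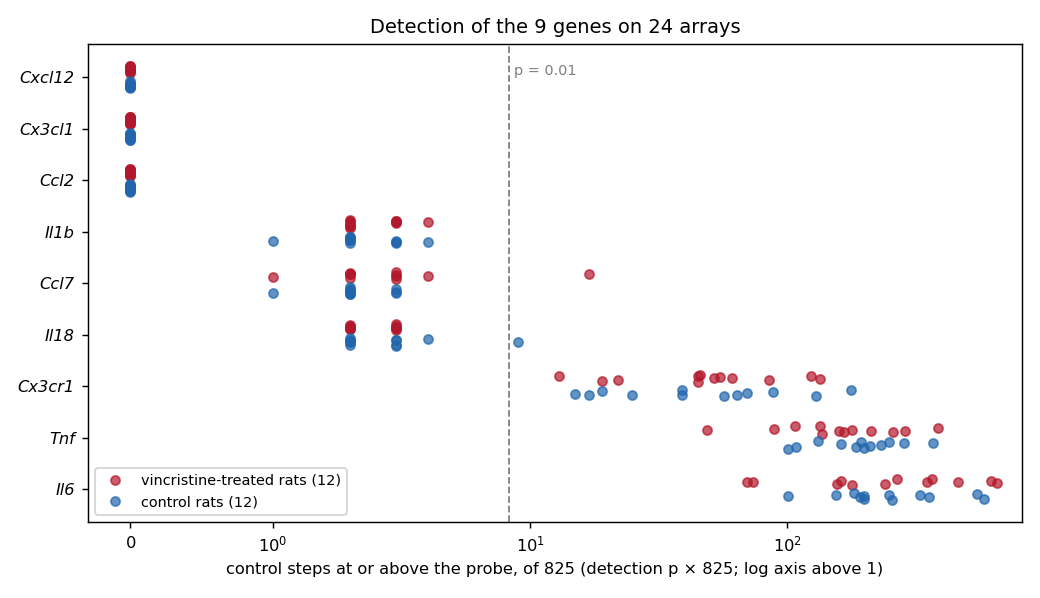
Detection of each gene on the 24 arrays, as the number of control steps at or above the probe (x axis, logarithmic above 1) for 12 vincristine-treated and 12 control rats. Cxcl12, Cx3cl1 and Ccl2 lie at 0 on every array, Il1b, Ccl7 and Il18 mostly at 1 to 4, and Cx3cr1, Tnf and Il6 at 13 or more of 825.

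The values below are background-corrected, quantile-normalized signals on the log2 scale, and differences are on that scale. Levels are compared between groups for one gene, never between genes. Ccl2, Cx3cl1 and Cxcl12 were tested with limma among the 7043 probes detected on at least 4 arrays, and Ccl7, Il1b and Il18 among the 10667 probes that a detection p of 0.01 keeps, with p-values adjusted by Benjamini-Hochberg over all of them. None of these 6 genes passed an adjusted p of 0.05 in any of 12 comparisons. Over all 7043 probes, 0.199% passed for vincristine minus control over the 3 drug groups, 0.0284%, 0.071% and 0.0142% for the same in saline-, morphine- and oxycodone-treated rats alone, 0.114% for both opioids minus saline and 0% in the other 7 comparisons. Over the 10667 probes the shares were 0.234%, 0.0187%, 0.103%, 0.00937%, 0.0562% and 0% in the same order. In the deposited table the arrays fall into 4 runs of 6 columns, called sets here, with every group present once in each. The sources do not say whether a set is a slide or a day. Fits that block by set are given for Cx3cl1 and Ccl2 with vincristine, for Cx3cl1 with both opioids, and for counts over all probes. The main fits, with their intervals, and the permutation tests below do not take the sets into account.

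Cx3cl1, known as fractalkine, had its highest mean level in saline-oxycodone treated rats and its lowest in vincristine-saline treated rats. Its levels on the 4 arrays of each group were 7.68, 8.14, 8.28 and 8.14 in vincristine-morphine, 7.41, 8.19, 8.07 and 7.85 in vincristine-oxycodone and 7.88, 7.51, 7.76 and 7.71 in vincristine-saline treated rats. In control rats they were 8.0, 7.95, 8.32 and 8.33 with morphine, 8.22, 8.68, 8.28 and 8.27 with oxycodone, and 7.60, 7.93, 7.89 and 7.77 with saline. Both opioid groups of control rats lay above all 4 saline-saline arrays, whereas in vincristine-treated rats the opioid and saline groups overlapped. How many of all probes part in this way is not given, so the separation is only a description. The means from high to low were 8.36 ± 0.212 in saline-oxycodone, 8.15 ± 0.203 in saline-morphine, 8.06 ± 0.262 in vincristine-morphine, 7.88 ± 0.34 in vincristine-oxycodone, 7.80 ± 0.149 in saline-saline and 7.71 ± 0.156 in vincristine-saline treated rats (SD, n = 4 each). Neighbours in this order were 0.0826 to 0.21 apart.

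Over both arms, Cx3cl1 averaged 8.11 ± 0.293 in the 16 opioid-treated rats and 7.76 ± 0.148 in the 8 saline-treated rats (SD). The difference was 0.36 (95% interval 0.16 to 0.56), or 1.28-fold, with an adjusted p of 0.342 in limma. It was positive in 4 of 4 sets (0.22 to 0.44). With the set as a block the adjusted p was 0.124. By unadjusted p it stood at place 26 of 7043 probes, of which 2.9% were under 0.05. Against saline, the difference with morphine was 0.34 (SE 0.156) in vincristine-treated and 0.35 (SE 0.156) in control rats, and with oxycodone 0.17 (SE 0.156) in vincristine-treated and 0.56 (SE 0.156) in control rats, each with an adjusted p of 1 in limma. The value with oxycodone in vincristine-treated rats was 0.064 without vincristine-oxycodone replicate 2, 0.10 without replicate 3 and 0.32 without replicate 1 of that group, 0.098 without vincristine-saline replicate 2, and 0.018 when the 6 arrays with the most skeletal muscle signal (a mean over 7.5) were left out. Morphine and oxycodone share the saline arrays within each arm. The 2 kept neutrophil genes of 8 measured were S100a8 and Lcn2, and their median difference from saline among vincristine-treated rats was 0.86 for morphine and 0.94 for oxycodone. Among control rats it was 0.43 for morphine and -0.08 for oxycodone, and 0 of 2 passed in each comparison. Their part in the Cx3cl1 values was not tested.

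Between the arms, Cx3cl1 averaged 7.88 ± 0.28 in the 12 vincristine-treated rats and 8.10 ± 0.297 in the 12 control rats (SD). The difference of -0.22 (95% interval -0.41 to -0.03) was negative in 4 of 4 sets (-0.27 to -0.17), with an adjusted p of 1 in limma, and of 0.542 with the set as a block. Without vincristine-oxycodone replicate 1 it was -0.17. Among oxycodone-treated rats alone the difference was -0.48 (SE 0.156, adjusted p = 1 in limma). It was -0.32 without vincristine-oxycodone replicate 1 and -0.58 without replicate 2 of that group. Levels were 7.41 to 8.19 in vincristine-treated and 8.22 to 8.68 in control rats, ranges that did not overlap. In that comparison 0.0142% of probes passed and 3.08% had an unadjusted p under 0.05. For this and the other groups said to lie apart, the share of all probes that part in this way is not given.

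Ccl2, the ligand of Ccr2 that attracts monocytes, was lower on average in each of the 3 vincristine groups than in any control group. Its levels were 6.85, 7.23, 7.17 and 7.38 in vincristine-morphine, 6.87, 7.12, 6.91 and 7.27 in vincristine-oxycodone and 7.07, 7.43, 6.99 and 7.03 in vincristine-saline treated rats. In control rats they were 7.48, 7.26, 7.10 and 7.45 with morphine, 7.58, 7.04, 7.42 and 7.04 with oxycodone, and 7.59, 7.40, 7.27 and 7.34 with saline. The arms overlapped, with 6.85 to 7.43 in vincristine-treated and 7.04 to 7.59 in control rats. From high to low the means were 7.40 ± 0.137 in saline-saline, 7.32 ± 0.175 in saline-morphine, 7.27 ± 0.275 in saline-oxycodone, 7.16 ± 0.224 in vincristine-morphine, 7.13 ± 0.202 in vincristine-saline and 7.04 ± 0.19 in vincristine-oxycodone treated rats (SD, n = 4 each), and neighbours were 0.0268 to 0.111 apart, less than any of these SDs.

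Over the 3 drug groups, the difference of vincristine minus control in Ccl2 was -0.22 (SE 0.0813, 95% interval -0.39 to -0.05), or 0.859 times the control level. It was negative in 4 of 4 sets (-0.32 to -0.12) and stood at place 76 of 7043 by unadjusted p, but its adjusted p was 1 in limma and 0.357 with the set as a block. Of the 3 genes detected throughout, Ccl2 and Cx3cl1 had an unadjusted p under 0.05 here, against 2.77% of all probes, and 0 of 3 passed, against 0.199%. With an opioid, Ccl2 differed from saline by -0.07 (95% interval -0.25 to 0.11).

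Cxcl12, also called stromal cell-derived factor 1, which acts through Cxcr4, was highest in vincristine-saline treated rats. Its levels were 9.0, 8.67, 8.93 and 8.84 in vincristine-morphine, 8.58, 8.85, 8.83 and 9.34 in vincristine-oxycodone and 9.05, 9.09, 9.12 and 9.51 in vincristine-saline treated rats. In control rats they were 8.79, 9.02, 8.78 and 9.20 with morphine, 8.73, 8.85, 8.93 and 8.77 with oxycodone, and 8.82, 8.81, 9.39 and 8.76 with saline. All 4 vincristine-saline arrays lay above all 4 vincristine-morphine arrays, while the vincristine-oxycodone group reached into the vincristine-saline range with 1 array, at 9.34. Here too the share of all probes that part in this way is not given.

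In vincristine-treated rats, Cxcl12 differed from saline by -0.33 with morphine (95% interval -0.65 to -0.02) and by -0.29 with oxycodone (95% interval -0.61 to 0.02), both with an adjusted p of 1 in limma. Both differences were negative in 4 of 4 sets, and they share the vincristine-saline arrays. Without vincristine-saline replicate 4 the value with morphine was -0.23 and that with oxycodone -0.19, and without vincristine-oxycodone replicate 1 that with oxycodone was also -0.19. Over both arms, the difference of both opioids minus saline was -0.19 (95% interval -0.38 to 0.01), and it was -0.11 without saline-saline replicate 3 and -0.30 without the 6 arrays high in muscle signal, which also moved the value with oxycodone in vincristine-treated rats to -0.52. With morphine in vincristine-treated rats, 9 of 10 fibroblast and matrix genes (median -0.22) and 9 of 9 macrophage genes (median -0.16) were lower than with saline, and with oxycodone 8 of 10 (median -0.12) and 5 of 9 (median -0.08) were, with 0 past the threshold. The mean of the fibroblast and matrix genes was 9.25 to 9.84 in vincristine-morphine, 9.48 to 9.79 in vincristine-oxycodone and 9.42 to 9.92 in vincristine-saline treated rats, and that of the macrophage genes 7.90 to 8.18, 7.93 to 8.24 and 8.03 to 8.30 in the same order. Their part in the Cxcl12 values was not tested. Vincristine minus control was 0.08 (95% interval -0.11 to 0.26), with 8.98 ± 0.264 in vincristine-treated and 8.90 ± 0.203 in control rats (SD, n = 12 each).

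**Figure D2:**
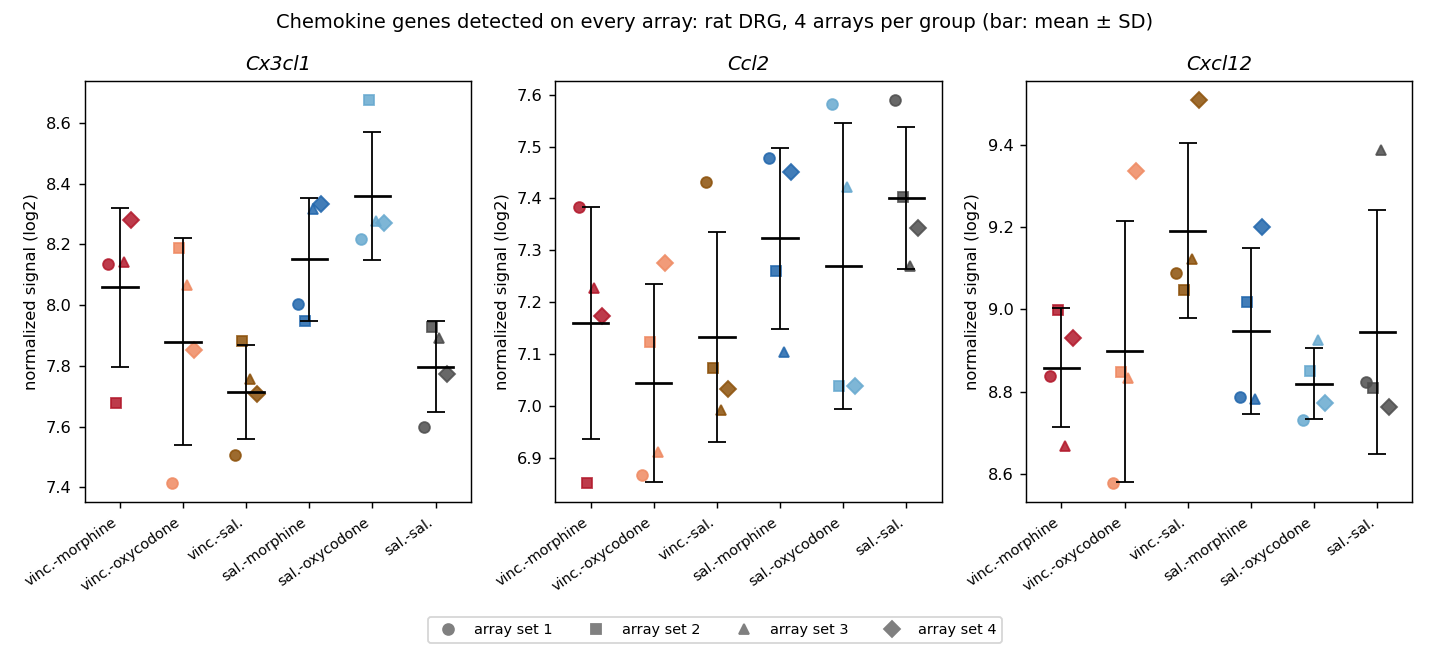
Normalized log2 signal (y axis) of Cx3cl1, Ccl2 and Cxcl12 in the 6 groups, 1 point per rat, with the point shape giving the array set and the bars the mean ± SD of 4 rats. Cx3cl1 means run from 7.71 in vincristine-saline to 8.36 in saline-oxycodone treated rats, and the Ccl2 means of the vincristine groups lie below those of the control groups.

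Ccl7, a close relative of Ccl2 that binds several chemokine receptors, was lowest in vincristine-oxycodone treated rats. Its levels were 5.51, 5.98, 5.87 and 6.12 in vincristine-morphine, 4.83, 5.13, 5.79 and 5.64 in vincristine-oxycodone and 5.80, 6.15, 5.70 and 6.20 in vincristine-saline treated rats. In control rats they were 5.49, 5.88, 6.13 and 5.89 with morphine, 5.61 to 5.98 with oxycodone, and 5.42 to 6.10 with saline. Vincristine-oxycodone replicates 1 and 2 were the lowest of all 24 arrays, and each pair of groups overlapped. In vincristine-treated rats the difference of oxycodone minus saline was -0.61 (SE 0.201) and that of morphine minus oxycodone 0.52 (SE 0.201), and in oxycodone-treated rats vincristine minus control was -0.53 (SE 0.201), each with an adjusted p of 1 in limma. All 3 rest on the same 4 vincristine-oxycodone arrays. Without replicate 1 of that group they were -0.44, 0.35 and -0.36. With no background correction, which gave the same values as the authors' log2 table, they were -0.36, 0.30 and -0.30. Without the 6 muscle-high arrays, which leaves 2 arrays in each opioid group of vincristine-treated rats, oxycodone minus saline was -0.92, morphine minus oxycodone 1.07 (adjusted p = 1 in limma) and vincristine minus control -0.90. Over the 3 drug groups vincristine minus control was -0.11 (95% interval -0.35 to 0.14), and over both arms opioids minus saline was -0.13 (95% interval -0.39 to 0.13).

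Il1b, the precursor of interleukin 1 beta, had 5.84, 5.62, 5.78 and 5.88 in vincristine-morphine, 5.14, 5.81, 5.70 and 5.73 in vincristine-oxycodone and 5.87, 5.66, 5.67 and 5.98 in vincristine-saline treated rats. In control rats it had 5.80 to 6.07 with morphine, 5.41 to 5.90 with oxycodone and 5.76 to 6.21 with saline, and the arms overlapped. The vincristine minus control difference was -0.12 (95% interval -0.29 to 0.04), and that of opioids minus saline was -0.11 (95% interval -0.28 to 0.07). Il18, a cytokine of the same family, lay between 5.43 and 5.93 in vincristine-treated rats and between 5.14 and 6.01 in control rats. It differed by 0.05 between vincristine and control (95% interval -0.13 to 0.23) and by -0.09 between opioids and saline (95% interval -0.28 to 0.10). The adjusted p of these 4 differences was 1 in limma.

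**Figure D3:**
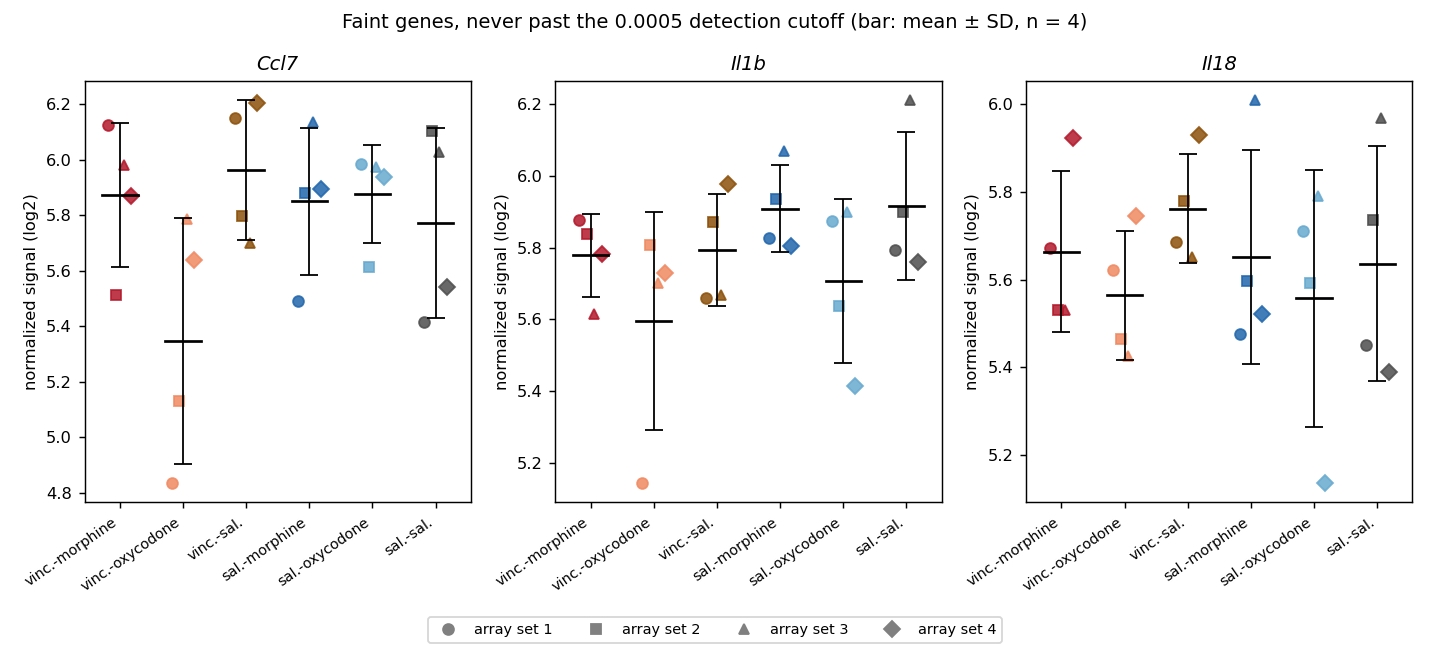
Normalized log2 signal (y axis) of Ccl7, Il1b and Il18, which no array detected at 0.0005, in the 6 groups, 1 point per rat, with the point shape giving the array set and the bars the mean ± SD of 4 rats. The lowest Ccl7 points are vincristine-oxycodone arrays at 4.83 and 5.13, and in each panel the groups overlap.

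For Cx3cr1, the receptor of Cx3cl1 on macrophages and microglia, and for Il6 and Tnf, no fold is given. Their probes were not within a detection p of 0.01 on any array. Levels of Cx3cr1 were 4.54 to 4.81 in vincristine-treated and 4.48 to 4.86 in control rats, those of Il6 were 4.29 to 4.61 in vincristine-treated and 4.31 to 4.57 in control rats, and those of Tnf were 4.37 to 4.65 in vincristine-treated and 4.38 to 4.56 in control rats.

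Morphine and oxycodone were compared directly in each arm, as 12 pairs over the 6 genes. Cx3cl1 differed by 0.18 in vincristine-treated rats (95% interval -0.15 to 0.50) and by -0.21 in control rats (95% interval -0.54 to 0.12), as morphine minus oxycodone. In vincristine-treated rats this value was 0.023 without vincristine-oxycodone replicate 1 and 0.31 without vincristine-morphine replicate 1, and in control rats it was -0.019 with median centring and -0.10 without saline-oxycodone replicate 2. Ccl2 differed by 0.12 in vincristine-treated rats (95% interval -0.18 to 0.41) and by 0.05 in control rats (95% interval -0.24 to 0.35). Cxcl12 differed by -0.04 in vincristine-treated rats (95% interval -0.36 to 0.28) and by 0.13 in control rats (95% interval -0.19 to 0.45). These intervals hold differences of either sign. Of the faint genes, Ccl7 differed by 0.52 in vincristine-treated rats (95% interval 0.11 to 0.94) and by -0.03 in control rats (95% interval -0.45 to 0.39), Il1b by 0.18 in vincristine-treated (95% interval -0.10 to 0.47) and 0.20 in control rats (95% interval -0.08 to 0.49), and Il18 by 0.10 in vincristine-treated (95% interval -0.21 to 0.41) and 0.09 in control rats (95% interval -0.22 to 0.40). Ccl7 in vincristine-treated rats was thus the 1 pair of 12 whose interval left out 0, and its adjusted p, like that of the other 11, was 1 in limma. Two-sided exact permutation tests gave p-values of 0.114 to 0.914, where 70 regroupings allow no p under 0.0286, and the groups overlapped in all 12. Over the 7043 probes, 0% passed in either arm, and 0.753% in vincristine-treated and 3.81% in control rats had an unadjusted p under 0.05. Over the 10667 probes, among which Ccl7, Il1b and Il18 were tested, 0% passed in either arm. There 1.27% in vincristine-treated and 3.52% in control rats had an unadjusted p under 0.05.

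**Figure D4:**
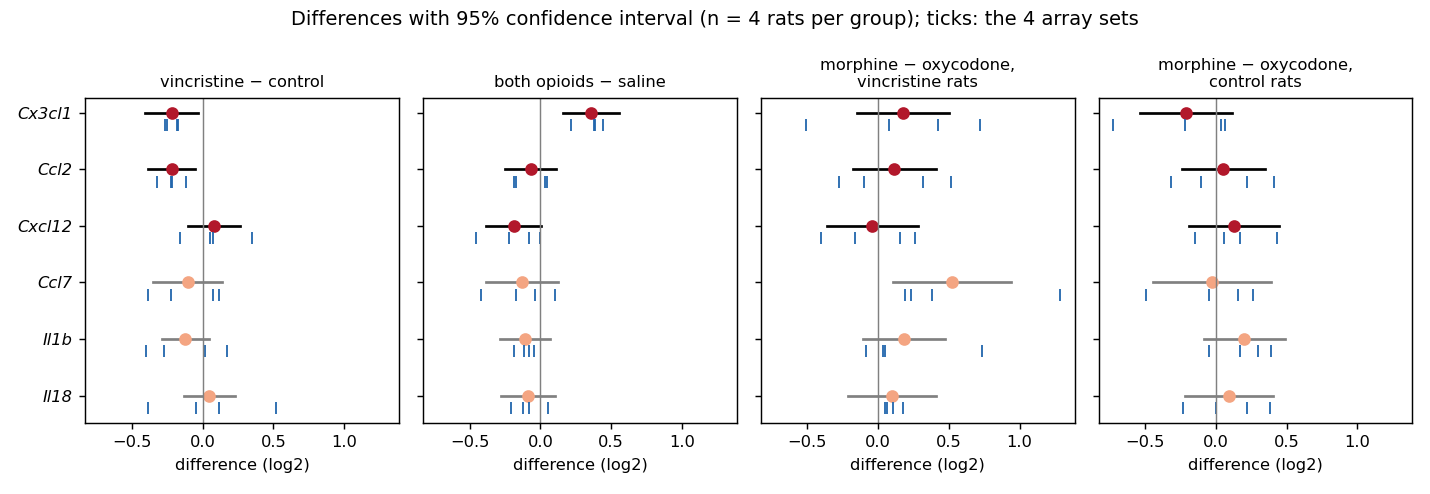
Differences on the log2 scale (x axis) with 95% confidence intervals for the 6 genes in 4 comparisons, with blue ticks for the values within each of the 4 array sets and pale points for the faint genes. Cx3cl1 with both opioids minus saline (0.36) is positive in every set, and Ccl2 and Cx3cl1 with vincristine minus control (both -0.22) are negative in every set.

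The receptors, proteases and signalling genes of these pathways were read from lists chosen with earlier results known. Of 14 receptors and decoys measured, 11 were detected on no array, among them Ccr2, Il1r1, Il6r and Il6st. The 3 kept were Cxcr4 (6.87 in vincristine-treated and 6.87 in control rats), Tnfrsf1a (8.48 in vincristine-treated and 8.49 in control rats) and Ccr1 (6.25 in vincristine-treated and 6.09 in control rats). The 4 kept of 10 proteases and inflammasome genes were all lower on average with vincristine, with a median of -0.11 against -0.00089 over all probes kept, and 0 of 4 passed. They were Adam17 (-0.19, SE 0.0746), Ctss, a cathepsin that can release Cx3cl1 (-0.14, SE 0.0731), Casp1 (-0.08, SE 0.112) and Pycard (-0.03, SE 0.116). Of 12 kept signalling genes 4 were higher and 8 lower (median -0.0064), including the NF-kappaB inhibitor Nfkbia (0.14, SE 0.0663), and 0 passed.

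Among 9 kept of 28 other chemokines, 5 were higher and 4 lower with vincristine, with a median of 0.09, and 0 passed in limma. The furthest apart was Pf4, a chemokine of platelets, at 9.42 in vincristine-treated and 7.85 in control rats (difference 1.57, SE 0.334, adjusted p = 0.0606 in limma). Ppbp, the other platelet chemokine listed, was detected on 0 of 24 arrays. Cxcl9 and Cxcl10, chemokines induced by interferon, averaged 6.37 and 6.34 in vincristine-treated rats, against 7.38 and 7.12 in control rats (differences -1.01 and -0.78, both adjusted p = 0.568 in limma). Cxcl9 was detected on 4 of 12 vincristine arrays and 11 of 12 control arrays, and Cxcl10 on 6 of 12 and 9 of 12. Of 10 kept of 37 other cytokines 3 were higher and 7 lower (median -0.0037). None of these 38 pathway genes passed in any of the 12 comparisons.

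Among kept markers of cell types, only those of red blood cells passed for vincristine minus control over the 3 drug groups. All 7 kept red blood cell genes were higher on average with vincristine (median 1.53). Of these, 5 were detected on all 24 arrays, Alox15 on 12 and Hemgn on 4. The filter may have kept Alox15 and Hemgn for the arrays where they are high, so their direction adds less than that of the other 5. The mean level of the 7 was 10.5 to 11.8 on vincristine arrays and 8.41 to 9.70 on control arrays. Alas2, Slc4a1 and Epb42 were never detected. Skeletal muscle genes had a median difference of 0.80 with vincristine, 0.69 with the opioids, and 0.90 and 1.03 with morphine minus oxycodone in vincristine-treated and control rats, and 0 of 9 passed in each. Their mean level was 6.86 to 10.2 in vincristine-treated and 6.47 to 10.6 in control rats, with Myh4 and Myh2 never detected. Of 9 kept macrophage genes of 14 measured, 2 were higher and 7 lower with the opioids (median -0.03). Only Trem2 passed there (-0.36, adjusted p = 0.0365 in limma), against 0.114% of all probes kept. Cd163, Adgre1, Itgam, Tyrobp and Fcgr2b were never detected. The mean over the 9 was 7.90 to 8.30 in vincristine-treated and 7.87 to 8.30 in control rats. It was 7.90 to 8.24 in opioid-treated and 7.87 to 8.30 in saline-treated rats. The 2 kept neutrophil genes had a median difference of 0.54 with the opioids (Lcn2 1.05, SE 0.489, and S100a8 0.03, SE 0.328, both adjusted p = 1 in limma), and S100a9, Mpo, Elane, Camp, Cxcr2 and Csf3r were never detected. Their mean level was 6.17 to 7.93 in opioid-treated and 5.60 to 8.02 in saline-treated rats. Of 10 fibroblast and matrix genes 8 were lower with vincristine (median -0.07), and 10 of 10 in morphine-treated rats (median -0.24), with 0 past the threshold. Their mean level was 9.25 to 9.92 in vincristine-treated and 9.39 to 9.97 in control rats. None of 12 lymphocyte markers was detected on any array. When the 6 arrays with most muscle signal were left out, Ccl2 differed by -0.21 with vincristine, Cx3cl1 by -0.18 with vincristine and by 0.31 with the opioids. The part of red blood cells, neutrophils, fibroblasts and macrophages in the differences of the chemokine genes was not tested.

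Across the 24 arrays, values after removing set means were most alike for the following genes among 5498 named probes, given as a description, since arrays of 1 set or treatment are not independent. Closest to Cx3cl1 were Dnajb1, a partner of the Hsp70 chaperones (r = 0.78, and 0.81 without removing set means), Mvd, an enzyme of cholesterol synthesis (0.73 and 0.69), and Acot7, an acyl-CoA thioesterase (0.72 and 0.61). Closest to Ccl2 were Gask1b (0.77 and 0.60), Lcmt2 (0.75 and 0.30) and Gbp2, an interferon-induced GTPase (0.74 and 0.68). Closest to Cxcl12 were Itgbl1 (0.79 and 0.15), Olfml3 (0.78 and 0.71) and Gypc (0.77 and 0.77). Among the genes followed here, the highest such r over the 24 arrays was 0.59, between Ccl2 and Il1b, and the lowest -0.36, between Cx3cl1 and Cxcl12.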

How the data were processed

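Total RNA of lumbar DRG from 24 rats was hybridised to Illumina RatRef-12 arrays with 22517 probes. The authors deposited signal intensities on a linear scale, not normalized between arrays and with no background subtracted, and beside each a detection p-value. The deposited log2 values are the log2 signals after quantile normalization of the arrays. The authors' methods state that spots with a detection p above 0.0005 were excluded. They used a two-way analysis of variance and Student's tests without adjustment. Ccl7 is nevertheless among the genes that the paper lists as differing between the opioids in vincristine-treated rats, with the higher level under morphine. Here its probe met that cutoff on 0 of 24 arrays, so how the filter was applied is not known. No source used here names the scanner software.

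From the intensities, neqc (offset 16) of limma 3.58.1 in R 4.3.3 gave background-corrected, quantile-normalized log2 values. A probe was kept when 4 or more arrays had a detection p within 0.0005 (7043 probes), or within 0.01 for the faint genes. A linear model of the 6 group means (lmFit, eBayes, 18 residual degrees of freedom) was fitted to all arrays, with Benjamini-Hochberg adjustment in each comparison. The script was tested on simulated data. Between 6112 and 6907 probes per array were detected, and with 4 arrays per group the median standard error of a difference between groups was 0.118. Alternatives were other corrections, scalings, filters, array weights, the methods' test, blocks by set or replicate number, and arrays left out.

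The 9 genes and all lists were chosen with earlier results of these data known. Of other genes, up to 4 per list with the smallest p for vincristine, those past the threshold, and the 3 most correlated with each detected gene were named. Probe genes came from the platform annotation (13787 probes with 1 gene, 8730 with none), with symbols updated through RefSeq. Arrays of the same set had correlated residuals (mean r 0.412, 53 of 60 pairs over 0.1), and the first principal component held 43.3% of the variance, 99.4% of it by set. Nothing in the labels says that the rats were housed or processed together by replicate number. Figures were drawn with matplotlib 3.10.9.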

Additional observations from a re-analysis of the deposited data

Results flagged for a closer look

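In 5 of 36 groups of 4 arrays, over Ccl2, Ccl7, Cx3cl1, Cxcl12, Il1b and Il18, 1 array stood far from the other 3 by Dixon's criterion, which chance alone meets in about 1 in 20 groups. Cx3cl1 was 8.68 on saline-oxycodone replicate 2, and 8.22 to 8.28 on the others of its group. The same array had Ccl7 at 5.61, and the others of that group 5.94 to 5.98. Cxcl12 was 9.51 on vincristine-saline replicate 4, and 9.05 to 9.12 on the others, and it was 9.39 on saline-saline replicate 3, and 8.76 to 8.82 on the others. Il1b was 5.14 on vincristine-oxycodone replicate 1, and 5.70 to 5.81 on the others, the array that also had the lowest Ccl7. Without saline-oxycodone replicate 2, Cx3cl1 differed by 0.46 with oxycodone against saline in control rats, in place of 0.56.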

How the results depend on the processing

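None of the 9 genes followed, as far as a filter kept them, passed the adjusted threshold in any of the 12 comparisons under any alternative run. Other chemokine and cytokine genes, such as Pf4, were not counted separately there. The counts over all probes moved. For vincristine minus control over the 3 drug groups, 14 probes passed, and 25 with the detection filter at 0.01, 9 with detection required on all arrays, 23 with array weights, 42 with the set block and 6 when the 6 muscle-high arrays (mean over 7.5) were left out. In saline-treated rats 2 passed, and 1 with detection on all arrays, 7 with array weights and 0 by the methods' test. In morphine-treated rats 5 passed, and 11 with the filter at 0.01, 12 with array weights, 8 with the set block, 1 without the muscle-high arrays and 0 by the methods' test. In oxycodone-treated rats 1 passed, and 3 with median centring, 5 with array weights, 3 with the set block, and 0 with detection on all arrays or by the methods' test. For both opioids minus saline 8 passed, and 1 with median centring, 3 with no filter, 22 with array weights, 3 by the methods' test, 22 with the set block and 1 without the muscle-high arrays. Morphine minus saline gave 0, and 1 with the set block in vincristine-treated rats, and in control rats 10 with array weights, 2 with the set block and 1 without the muscle-high arrays. Oxycodone minus saline in control rats gave 0, and 2 with the set block. Leaving out 1 array gave 14 to 18, 2 to 3, 2 to 8, 1 to 3 and 3 to 12 for these vincristine and combined opioid comparisons in the order given, and 0 to 1 for morphine minus saline in each arm. The combined opioid count was 12 without vincristine-saline replicate 1 or saline-morphine replicate 1, and 3 without any of several other arrays. In morphine-treated rats the vincristine count was 2 without vincristine-morphine replicate 1 or 3 or saline-morphine replicate 4, all 3 of them muscle-high arrays. The cause of these shifts was not tested.

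With the replicate number as a block, 5 probes passed for both opioids minus saline, and Cx3cl1 there had an adjusted p of 0.232. Same-numbered arrays had a mean residual correlation of 0.0447 (30 of 60 pairs over 0.1, 15 of 24 arrays closest to their own number). The replicate number equals the set number except in vincristine-morphine replicates and vincristine-saline replicates 1 and 2. The replicate block is therefore not separate from the set block, and these values cannot tell whether the numbers pair the rats.

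Directions turned only in small differences, none past the threshold: Ccl7 for morphine minus oxycodone in control rats (0.10 with median centring and 0.10 with array weights), Ccl2 for the same in vincristine-treated (-0.032) and control rats (-0.029), Cx3cl1 in vincristine-treated rats (-0.0074) and Il18 for vincristine minus control (-0.048), all with array weights, and Cxcl12 for morphine minus oxycodone in vincristine-treated rats (0.040 without the muscle-high arrays). Leaving out 1 array gave -0.15 to 0.11 for Cxcl12 in vincristine-treated rats, and in control rats -0.12 to 0.092 for Ccl7, -0.047 to 0.17 for Il18 and -0.024 to 0.16 for Ccl2. Median centring moved the median of all probes by 0.19 for morphine minus oxycodone in control rats, 0.12 for morphine minus saline in control rats and -0.11 for vincristine minus control in morphine-treated rats.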
